A study of Mus musculus with 21 samples.

Results

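The F-box gene Fbxo2, the other F-box genes of the glycoprotein-binding group and the core of the ligase they serve were followed in cultured mouse glioma cells. The genes are Fbxo2, Fbxo6, Fbxo44, Fbxo27, Skp1a and Cul1, 6 of the 54532 genes in the expression table, each found by its symbol. They were selected on these measurements, because Fbxo2 was higher in all IDH1 mutant lines. The genotype values of Fbxo2 are therefore a description without a test. Of the 6 genes, 5 were among the 13379 genes expressed highly enough to be tested, and Fbxo27 was not.

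Messenger RNA was sequenced from 7 glioma stem-like lines, cultures grown from brain tumours of engineered mice. The 4 IDH1 mutant lines were PIC144-1, PIC144-3, PIC496-3 and PIC496-4, and the 3 IDH1 WT lines were PC134-0, PC308-1 and PC326-1. All were grown in neural stem cell medium with EGF, bFGF and heparin on low-adherence plates at low oxygen, and none was treated. The stated purpose was to compare expression of a DNA sensor gene between the genotypes, and each line gave 3 libraries of 15011668 to 21966351 fragments. The labels do not give the exact Idh1 allele, the promoter or cell type that drove it, the other tumour-initiating changes, or the age of the mice. Whether both PIC144 lines, or both PIC496 lines, were taken from 1 mouse is not stated. The 3 libraries of a line are called biological replicates with no account of separate cultures, so p-values over libraries measure a spread that may be technical.

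Markers of neural progenitors and glioma stem-like cells were present in every line, with all 8 detected and their summed level between 742 and 1564 FPKM in IDH1 mutant lines and between 1068 and 1367 FPKM in IDH1 WT lines. FPKM is the number of fragments scaled by gene length and by library size. Several defining markers of other brain cells were low or absent. The microglial genes C1qa and C1qb and the endothelial gene Cldn5 were at 0 in every line, and the astrocyte gene Gfap and the neuronal genes Rbfox3, Snap25, Stmn2, Slc17a7 and Gad2 stayed under 0.5 FPKM. Other markers were expressed, such as the astrocyte glutamate transporter Slc1a3 at 46.5 ± 14.5 FPKM in IDH1 mutant lines and 57.6 ± 19.5 FPKM in IDH1 WT lines (SD over lines, n = 4 and 3). The calcium-binding astrocyte gene S100b reached 1.91 FPKM in the highest mutant line and 23.1 FPKM in the highest WT line. In the same order, the macrophage gene Cd68 reached 2.35 and 5.05 FPKM and the endothelial gene Kdr 0.309 and 0.728 FPKM. Library 2 of PIC496-4 stood farther from the other libraries of its line than any other library did. Results that change without it are given with and without it.

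An SCF ubiquitin ligase is built on the scaffold Cul1, which holds a RING protein and its ubiquitin-loaded partner at one end and the adaptor Skp1 at the other. Skp1, encoded in the mouse by Skp1a, docks an F-box protein, and the F-box protein chooses the substrate. The glycoprotein F-box proteins share a sugar-binding domain. FBXO2 and FBXO6 bind the high-mannose N-glycans that proteins receive in the endoplasmic reticulum, and can direct misfolded glycoproteins to the proteasome after their export to the cytosol. FBXO2 was first described as a protein of the brain and is abundant in neurons. FBXO44 is closely related but binds N-glycans poorly or not at all, and FBXO27 and FBXO17 complete the group.

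Fbxo2, Fbxo44 and Fbxo6 are neighbours on chromosome 4 and together span 20709 bases of the GRCm38 assembly. Fbxo2 (ENSMUSG00000041556) occupies chr4:148160621-148166424 on the plus strand. Fbxo44 (ENSMUSG00000029001) occupies chr4:148152800-148160482 on the minus strand, head to head with Fbxo2 and 138 bases from it. Fbxo6 (ENSMUSG00000055401) follows at chr4:148145716-148152140, also on the minus strand and 659 bases beyond Fbxo44. Fbxo27 (ENSMUSG00000037463) is at chr7:28692849-28699338 on the plus strand, with Fbxo17 (ENSMUSG00000030598) 17465 bases further along the same strand. Skp1a (ENSMUSG00000036309) is at chr11:52231995-52246858 and Cul1 (ENSMUSG00000029686) at chr6:47453398-47526139, both on the plus strand.

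The start regions of the 3 neighbours are shown because the genes lie side by side and their levels did not move together. Each is 300 bases long, from 250 bases before to 50 bases after a RefSeq transcript start on GRCm38.p6, read 5′ to 3′ on the gene's own strand. Capitals mark the GC box GGGCGG, searched on both strands as GGGCGG and CCGCCC. Fbxo44 and Fbxo6 have several RefSeq starts, and of these the Fbxo44 window nearest to Fbxo2 and the Fbxo6 window richest in CpG are given. In order they are chr4:148160418-148160717 on the plus strand, and chr4:148160045-148160344 and chr4:148151876-148152175 on the minus strand.
Fbxo2: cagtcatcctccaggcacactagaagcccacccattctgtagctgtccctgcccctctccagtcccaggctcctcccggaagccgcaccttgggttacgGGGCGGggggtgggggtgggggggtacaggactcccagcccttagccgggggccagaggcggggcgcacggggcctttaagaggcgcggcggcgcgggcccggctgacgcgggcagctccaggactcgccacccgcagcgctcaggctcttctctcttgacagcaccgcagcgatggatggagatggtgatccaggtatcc
Fbxo44: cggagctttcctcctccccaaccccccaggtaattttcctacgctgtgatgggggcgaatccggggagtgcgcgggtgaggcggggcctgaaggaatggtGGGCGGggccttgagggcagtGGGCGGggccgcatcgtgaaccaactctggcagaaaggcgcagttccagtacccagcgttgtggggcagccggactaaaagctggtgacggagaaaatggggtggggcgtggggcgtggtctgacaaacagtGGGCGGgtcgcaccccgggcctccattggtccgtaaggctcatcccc
Fbxo6: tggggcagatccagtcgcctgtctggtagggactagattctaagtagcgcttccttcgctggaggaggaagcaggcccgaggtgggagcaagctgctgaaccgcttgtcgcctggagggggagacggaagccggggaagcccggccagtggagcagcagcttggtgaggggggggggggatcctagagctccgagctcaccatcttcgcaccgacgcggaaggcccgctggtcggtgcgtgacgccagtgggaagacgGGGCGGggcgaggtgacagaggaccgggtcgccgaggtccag
The Fbxo2 window held 21 CpG and 1 GC box at 69% GC. The Fbxo44 window held 21 CpG, 3 GC boxes and 1 CCAAT at 65.3% GC, and the Fbxo6 window held 24 CpG and 1 GC box at 67.3% GC. The Fbxo6 windows not shown held 5 and 10 CpG and those of Fbxo44 9 and 22 CpG, all without a GC box. Over all 32851 RefSeq windows of this length the median was 7 CpG, 35.7% held a GC box and 37.4% held CCAAT on either strand. The 5′ end that the table gives for Fbxo44 lies inside the Fbxo2 window. Among the ligase core, the Skp1a window (listed by RefSeq as Skp1) held 34 CpG, a TATAAA and the CRE-type sequence TGACGTCA, which 13.6% and 1.79% of all windows hold. The 3 Cul1 windows held 5, 43 and 46 CpG. These matches describe letters in the windows and not binding.

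Fbxo2 was the most abundant F-box gene of the group in all 7 lines, by a wide margin in the IDH1 mutant lines and by a narrow one in PC134-0. Its 3 libraries read 27.5, 22.2 and 21.1 FPKM in PIC144-1 and 33.5, 26.6 and 27.3 FPKM in PIC144-3. They read 25.8, 19.3 and 23.0 FPKM in PIC496-3 and 32.6, 16.7 and 27.9 FPKM in PIC496-4. In the IDH1 WT lines they read 7.94, 5.54 and 8.33 FPKM in PC134-0, 9.998, 8.35 and 9.73 FPKM in PC308-1, and 8.24, 7.42 and 6.50 FPKM in PC326-1. Each of the 12 mutant libraries stood above each of the 9 WT libraries, with the lowest mutant library, library 2 of PIC496-4, still well clear of the highest WT library, library 1 of PC308-1.

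Averaged over lines, Fbxo2 stood at 25.3 ± 2.86 FPKM in IDH1 mutant lines (n = 4) and 8.004 ± 1.17 FPKM in IDH1 WT lines (n = 3, SD over lines). The mutant-minus-WT difference of log2(FPKM + 0.5) was 1.60 (SE 0.149), a 3.04-fold difference on that scale. These are the values on which the gene was chosen. The line nearest to the other genotype was PIC496-3 at 22.7 FPKM on the mutant side and PC308-1 at 9.36 FPKM on the WT side. Between 468 and 2093 fragments per line lay behind each line mean.

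**Figure D1:**
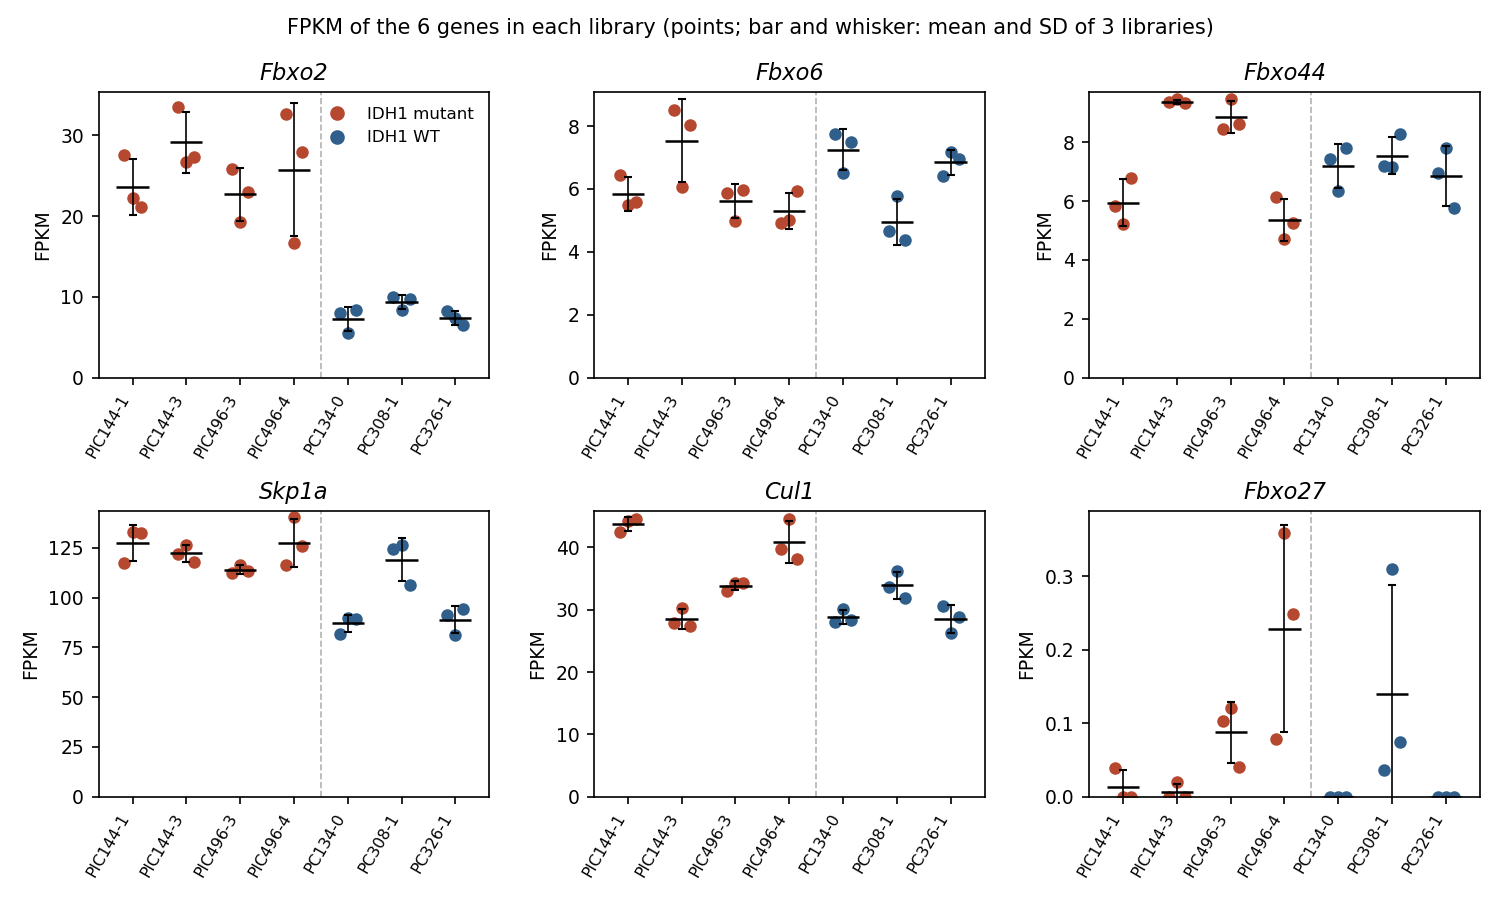
FPKM (vertical axes, linear, from 0) of the 6 genes in each of the 21 libraries (points), by line, with the IDH1 mutant lines in red at the left and the IDH1 WT lines in blue at the right; bars and whiskers are the mean and SD of the 3 libraries of a line. Fbxo2 separates the genotypes, at 16.7 FPKM or more in mutant libraries and 9.998 FPKM or less in WT libraries, whereas the other 5 genes overlap.

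Within a genotype the highest and lowest Fbxo2 line means were 1.28-fold apart among mutant lines and 1.29-fold apart among WT lines. The 4 mutant lines averaged 23.6 ± 3.44 FPKM in PIC144-1, 29.1 ± 3.77 in PIC144-3, 22.7 ± 3.27 in PIC496-3 and 25.7 ± 8.21 in PIC496-4 (SD, n = 3 libraries each). The limma F test between them gave an adjusted p of 0.445, in a genome-wide setting where 79.9% of tested genes differed between mutant lines at an adjusted p under 0.05. Without library 2 of PIC496-4 that adjusted p was 0.0453, a setting chosen after seeing the data, so the call depends on 1 library.

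The 3 WT lines averaged 7.27 ± 1.51 FPKM in PC134-0, 9.36 ± 0.882 in PC308-1 and 7.38 ± 0.871 in PC326-1 (SD, n = 3 libraries each). The F test between them gave an adjusted p of 0.098 with limma, where 57% of tested genes differed between WT lines. PC308-1 was the highest, and all of its libraries lay above those of PC134-0 and PC326-1, whose ranges overlapped each other. This order rests on small steps. Leaving out PC134-0 gave an adjusted p of 0.0345 and leaving out replicate 2 gave 0.0437 by limma, so the test fell on either side of the threshold.

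A pattern shared by both genotypes was the library number. Library 2 gave the lowest Fbxo2 value in 5 of 7 lines, and no line had its lowest value in library 1. For Fbxo6 and Fbxo44 library 2 was the lowest in 4 of 7 lines. For Skp1a library 1 was the lowest in 4 of 7, and for Cul1 libraries 1 and 3 in 3 each. The labels do not say what a number stands for. Taken one number at a time, Fbxo2 averaged 29.9 FPKM in mutant and 8.73 FPKM in WT lines in libraries 1, 21.2 and 7.10 FPKM in libraries 2, and 24.8 and 8.18 FPKM in libraries 3. The log2 differences were 1.72, 1.51 and 1.55, values that were part of the choice of the gene. With the library number as a block, the limma F test for Fbxo2 gave an adjusted p of 0.122 between mutant lines and 0.0609 between WT lines. The library-to-library coefficient of variation of Fbxo2, with a median of 14.4% over lines, was below that of the weakly expressed Fbxo17 (16.2%) and above those of Fbxo44 (10.5%), Fbxo6 (9.62%), Skp1a (7.10%) and Cul1 (5.55%).

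Fbxo44, the head-to-head neighbour of Fbxo2, showed no genotype difference that passed the test and varied instead among the mutant lines. Its libraries read 5.84, 5.21 and 6.79 FPKM in PIC144-1, and 6.13, 4.70 and 5.27 FPKM in PIC496-4. They read 9.37, 9.47 and 9.34 FPKM in PIC144-3, and 8.45, 9.48 and 8.64 FPKM in PIC496-3. In the WT lines the 9 libraries lay between 5.77 and 8.29 FPKM. The mutant lines thus formed a high and a low pair that did not overlap, with the WT lines between them and overlapping the low pair. Each pair holds 1 PIC144 line and 1 PIC496 line.

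By genotype, Fbxo44 averaged 7.39 ± 2.03 FPKM in IDH1 mutant lines (n = 4) and 7.20 ± 0.349 FPKM in IDH1 WT lines (n = 3, SD over lines). The log2 difference was -0.00051 (95% interval -0.50 to 0.49), with a limma adjusted p of 0.999 and an exact permutation p of 1. Between mutant lines the limma F test gave an adjusted p of 3.89e-05 and between WT lines 0.576.

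Fbxo6, which like FBXO2 encodes a binder of high-mannose glycans, stood at 6.07 ± 1.01 FPKM in IDH1 mutant lines (n = 4) and 6.35 ± 1.23 FPKM in IDH1 WT lines (n = 3, SD over lines). Its highest line means were 7.54 FPKM in PIC144-3, a mutant line, and 7.25 FPKM in PC134-0, a WT line, and its lowest were 5.29 FPKM in PIC496-4 and 4.94 FPKM in PC308-1. The genotypes overlapped throughout, and each line overlapped its neighbours in the order of levels. The log2 difference was -0.05 (95% interval -0.49 to 0.38), with a limma adjusted p of 0.916 and an exact permutation p of 0.8.

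Between lines of a genotype, Fbxo6 passed the limma F test in both, with an adjusted p of 0.0196 among mutant lines and 0.00391 among WT lines. Each call rested on 1 line. Without PIC144-3 the adjusted p among mutant lines was 0.499, and without PC308-1 that among WT lines was 0.626. The call among mutant lines was also lost without replicate 1 (adjusted p 0.198 by limma), without replicate 3 (0.113) and with no filter on low genes (0.0769), and the call among WT lines without replicate 1 (0.0708) or replicate 3 (0.0732).

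Fbxo27 was close to the limit of detection in all lines, and no genotype difference was computed. Summed over 3 libraries, it drew 2 fragments in PIC144-1, 1 in PIC144-3, 14 in PIC496-3 and 38 in PIC496-4. Among the WT lines it drew 22 fragments in PC308-1, and 0 in PC134-0 and PC326-1, where a count of 0 allows up to 3 fragments, or 0.0191 and 0.01995 FPKM. Its highest line mean was 0.228 FPKM in PIC496-4 (95% Poisson interval 0.165 to 0.320 FPKM, covering counting error only). PIC496-4 and PC308-1, the highest lines, belong to different genotypes. Libraries 1, 2 and 3 drew 4, 20 and 14 fragments in PIC496-4 and 2, 16 and 4 in PC308-1, so library 2 gave the most in each.

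The same lines led for Fbxo17, the remaining gene of the group and the neighbour of Fbxo27 on chromosome 7. It stood at 2.08 ± 0.338 FPKM in PIC496-4 and 2.58 ± 0.227 FPKM in PC308-1 (SD, n = 3 libraries each). The other 3 mutant lines lay between 0.735 and 1.29 FPKM and the other WT lines between 1.25 and 1.36 FPKM. By genotype it averaged 1.22 ± 0.629 FPKM in IDH1 mutant lines (n = 4) and 1.73 ± 0.738 FPKM in IDH1 WT lines (n = 3, SD over lines), a log2 difference of -0.39 (SE 0.33) with a limma adjusted p of 0.619. Between lines the limma F test gave an adjusted p of 0.00113 for the mutant and 0.000576 for the WT lines.

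The make-up of the group of 5 glycoprotein F-box genes differed between the genotypes, a description that follows in part from the choice of Fbxo2. Their summed level was 40.1 ± 5.00 FPKM in IDH1 mutant lines (n = 4) and 23.3 ± 1.11 FPKM in IDH1 WT lines (n = 3, SD over lines). Fbxo2 made up 63.3 ± 3.18% of that sum in IDH1 mutant lines and 34.2 ± 3.41% in IDH1 WT lines. In WT lines Fbxo44 made up 30.9 ± 0.400% and Fbxo6 27.4 ± 6.33%. All 3 genes had close to equal shares in PC134-0 and PC326-1, while in PC308-1 Fbxo2 made up 38.1% and Fbxo6 20.1%. Without Fbxo2 the sum was 14.8 ± 2.61 FPKM in IDH1 mutant lines and 15.3 ± 0.331 FPKM in IDH1 WT lines.

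**Figure D2:**
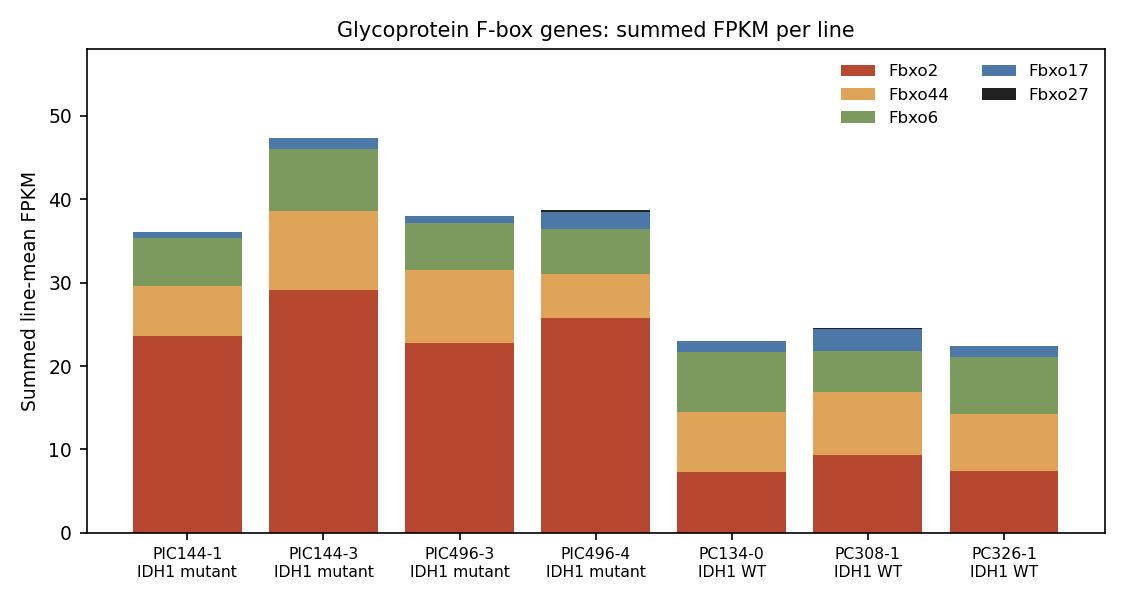
Stacked line-mean FPKM (vertical axis, from 0) of the 5 glycoprotein F-box genes in the 4 IDH1 mutant lines (left) and the 3 IDH1 WT lines (right). The Fbxo2 segment is 22.7 to 29.1 FPKM high in mutant and 7.27 to 9.36 FPKM high in WT lines, while the segments above it sum to 12.5 to 18.2 FPKM and 15.1 to 15.7 FPKM.

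The ratio of Fbxo2 to its head-to-head neighbour Fbxo44 was 3.61 ± 0.980 in IDH1 mutant lines (n = 4) and 1.11 ± 0.117 in IDH1 WT lines (n = 3, SD over lines). It ran from 2.56 in PIC496-3 to 4.795 in PIC496-4, and from 1.01 in PC134-0 to 1.24 in PC308-1. Among mutant lines it was higher in the pair with low Fbxo44, PIC144-1 and PIC496-4. The longest run identical between any annotated transcripts of Fbxo6 and Fbxo44 was 25 bases, and that between Fbxo2 and any other gene of the group was 13 bases. How reads were assigned between the genes was not tested.

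Skp1a, the adaptor that all F-box proteins share, was the most abundant of the 6 genes, above 97.4% of tested genes by mean FPKM. Its line means were 128 FPKM in PIC144-1, 122 in PIC144-3, 114 in PIC496-3 and 127 in PIC496-4, against 87.0 in PC134-0, 119 in PC308-1 and 88.9 in PC326-1. Of the WT lines only PC308-1 reached the mutant range. Skp1a averaged 123 ± 6.37 FPKM in IDH1 mutant lines (n = 4) and 98.3 ± 18.0 FPKM in IDH1 WT lines (n = 3, SD over lines), a log2 difference of 0.33 (95% interval -0.016 to 0.68). The limma adjusted p was 0.403 and the exact two-sided permutation p 0.0571, where 35 ways of dividing the lines allow no p below 0.0286.

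The Skp1a difference between WT lines passed the limma F test with an adjusted p of 0.00208, and without PC308-1 it was 0.850. It was also lost without replicate 1 (adjusted p 0.0631). Between mutant lines the adjusted p was 0.178 by limma, and 0.0454 after quantile normalization. Skp1a transcripts outnumbered the glycoprotein F-box group per unit length in all lines, by a ratio of 3.10 ± 0.411 to the 5-gene sum in IDH1 mutant lines (n = 4) and 4.20 ± 0.565 in IDH1 WT lines (n = 3, SD over lines). Both ratios carry Fbxo2 in the sum.

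Cul1, the scaffold, differed among the mutant lines. Its libraries read 42.4, 44.3 and 44.5 FPKM in PIC144-1, and 39.8, 44.5 and 38.1 FPKM in PIC496-4. They read 27.9, 30.3 and 27.4 FPKM in PIC144-3, and 33.0, 34.4 and 34.3 FPKM in PIC496-3. The WT libraries lay between 26.2 and 36.1 FPKM. PIC144-1 and PIC496-4, the pair that was low for Fbxo44, were the pair that was high for Cul1, and their libraries stood above all WT libraries.

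By genotype Cul1 averaged 36.7 ± 6.85 FPKM in IDH1 mutant lines (n = 4) and 30.4 ± 3.02 FPKM in IDH1 WT lines (n = 3, SD over lines). The log2 difference was 0.25 (95% interval -0.15 to 0.66), with a limma adjusted p of 0.546 and an exact permutation p of 0.257. Among mutant lines the limma F test gave an adjusted p of 1.18e-05. Among WT lines it gave 0.0247, which was 0.911 without PC308-1 and lay above the threshold without replicate 1 (0.121), 2 (0.057) or 3 (0.0784), with no filter (0.0685) and as TPM (0.0957).

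Across the genome 16 of 13379 genes, or 0.12%, passed the genotype test at an adjusted p under 0.05, 3 higher and 13 lower in IDH1 mutant lines, and none of Fbxo6, Fbxo44, Skp1a and Cul1 was among them or had an unadjusted p under 0.05. At that unadjusted threshold limma held 12.8% of all tested genes, 815 higher and 897 lower. limma voom on fragments called 0 genes in all, with 1643 at an unadjusted p under 0.05. Line means of the genotypes did not overlap for 13.3% of tested genes. Of the 5 tested genes described here that held for Fbxo2, which was chosen for it, and for no other. Between mutant lines 3 of the 5 genes differed (Fbxo6, Fbxo44 and Cul1), and between WT lines also 3 (Fbxo6, Skp1a and Cul1), shares below and near the backgrounds of 79.9% and 57%. These totals depend on single lines. The genotype count was 0 without PC134-0 or PC326-1 (with 693 and 923 genes at an unadjusted p under 0.05 in limma), between 5 and 10 without PIC144-1, PIC496-3 or PIC496-4, and 29 without PC308-1. The 7620 genes that differed between WT lines became 1963 without PC308-1.

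Genes around Fbxo2 on chromosome 4 were compared with it by position. Here and in the rest of the text, ± gives the SD over the 4 IDH1 mutant or the 3 IDH1 WT lines. Of 19 genes within 250 kb, 9 were tested, Fbxo44 and Fbxo6 among them. All 9 lie on the Fbxo44 side of Fbxo2, so the other flank was not compared. Of the other 7 tested genes, 5 had positive and 2 negative log2 differences with a median of 0.22, against 0.0072 over all genes tested. None passed the limma test and 1, 2510039O18Rik, had an unadjusted p under 0.05, a share near the 12.8% of all genes. Mad2l2, a polymerase and shieldin subunit that lies beside Fbxo6, stood at 19.96 ± 6.59 FPKM in IDH1 mutant lines and 14.8 ± 2.24 FPKM in IDH1 WT lines (log2 difference 0.38). Draxin, an axon guidance gene whose start overlaps that of Mad2l2 on the other strand, had the largest positive value at 0.69 with a wide spread, at 8.22 ± 5.15 FPKM in IDH1 mutant lines and 5.22 ± 4.39 FPKM in IDH1 WT lines. In the other direction Agtrap, an angiotensin receptor-associated gene, stood at 5.46 ± 1.72 FPKM in IDH1 mutant lines and 8.87 ± 3.87 FPKM in IDH1 WT lines (log2 difference -0.60).

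Of the remaining neighbours, 2510039O18Rik was the only 1 of 7 with line means that did not overlap, a share near the 13.3% of all genes. It stood at 32.3 ± 7.78 FPKM in IDH1 mutant lines and 21.5 ± 0.616 FPKM in IDH1 WT lines (log2 difference 0.55). Clcn6, a chloride and proton exchanger, differed by 0.22 and the collagen lysyl hydroxylase gene Plod1 by -0.14. All 7 estimates were below the 1.60 of Fbxo2, and the 95% interval of Draxin, the widest, reached 2.07.

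**Figure D3:**
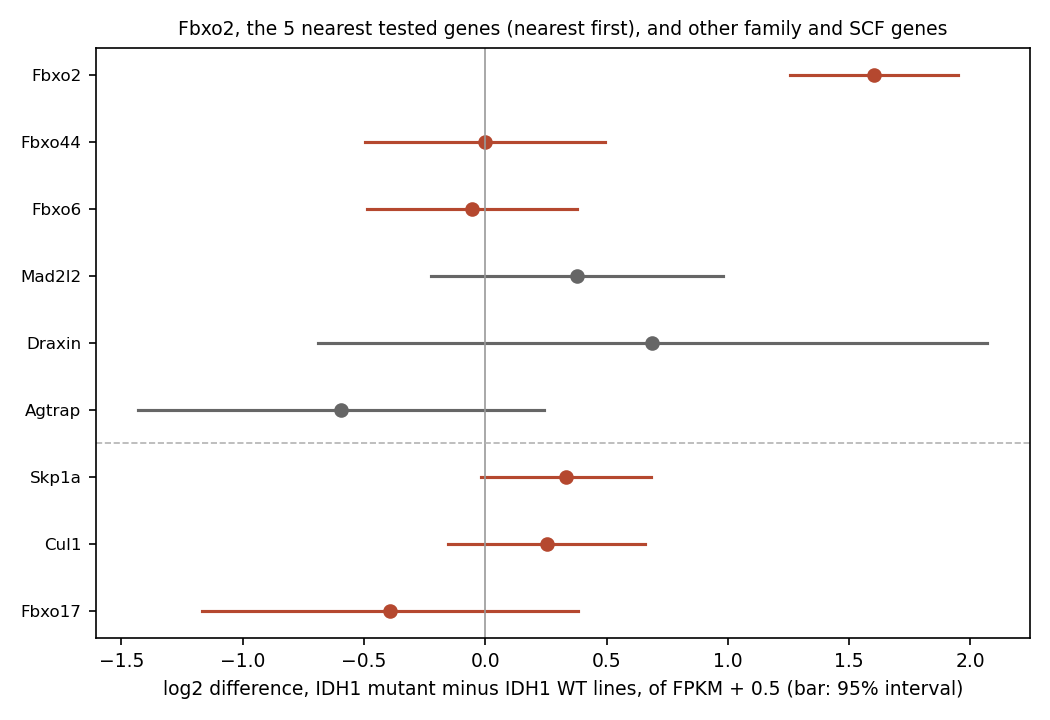
Log2 differences of line-mean FPKM + 0.5, IDH1 mutant minus IDH1 WT lines (points, horizontal axis), with 95% intervals (bars), for Fbxo2 and the 5 nearest tested genes, nearest first, and below the dashed line for Skp1a, Cul1 and Fbxo17; genes of the glycoprotein F-box group and the ligase core are red. Fbxo2, chosen on this contrast, is at 1.60, and the 5 nearest tested genes, all on its Fbxo44 side, lie between -0.60 and 0.69.

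No gene of the wider SCF machinery passed the genotype test. All 29 listed genes of the ligase core and its regulators, Skp1a and Cul1 among them, were tested, and 25 had positive and 4 negative differences, with a median of 0.09. Over all genes tested 6796 of 13379 were positive and the median was 0.0072. At an unadjusted p under 0.05 in limma 2 of the 29 were higher and 0 lower, a share below the 12.8% of all genes. The smallest p-values belonged to Gps1, a subunit of the COP9 signalosome that removes NEDD8 from cullins, and Ube2m, the NEDD8-conjugating enzyme that attaches it. Gps1 stood at 38.5 ± 6.73 FPKM in IDH1 mutant lines (n = 4) and 28.0 ± 2.71 FPKM in IDH1 WT lines (n = 3), with a log2 difference of 0.44 (SE 0.16, limma adjusted p 0.358). Ube2m stood at 51.9 ± 7.28 and 31.8 ± 15.7 FPKM in mutant and WT lines, with a log2 difference of 0.79 (SE 0.29, limma adjusted p 0.359).

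A list of 78 other F-box genes was measured, with Fbxo17 counted among them as well. Of these, 51 were tested, with 19 positive and 32 negative differences, a median of -0.05 and none past the test (3 higher and 0 lower at an unadjusted p under 0.05 in limma, a share below the 12.8% of all genes). Fbxw7, which targets cyclin E and Myc for degradation, stood at 5.72 ± 0.367 FPKM in IDH1 mutant lines and 3.98 ± 0.652 FPKM in IDH1 WT lines (log2 difference 0.48, limma adjusted p 0.311). Fbxo22 stood at 11.7 ± 0.921 FPKM in IDH1 mutant lines and 8.96 ± 0.0866 FPKM in IDH1 WT lines (log2 difference 0.36, limma adjusted p 0.328). Both sets of line means were free of overlap. Among the 51 tested that held for 3 genes higher and 3 lower in mutant lines, and for 13.3% of all genes. Fbxw11, a beta-TrCP gene and the most abundant of the list, stood at 45.6 ± 6.87 and 47.2 ± 7.30 FPKM in mutant and WT lines.

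Genes that handle N-glycosylated proteins, from which the ligands of glycoprotein F-box proteins come, were listed in 2 groups. No gene of either group passed the genotype test. Among genes of glycoprotein folding and degradation in the endoplasmic reticulum 32 were tested, 13 with positive and 19 with negative differences and a median of -0.08, and at an unadjusted p under 0.05 in limma 3 were higher and 2 lower, a share near the 12.8% of all genes. Os9, a lectin that recognises trimmed mannose on misfolded glycoproteins, stood at 26.6 ± 4.87 FPKM in IDH1 mutant lines and 42.3 ± 9.36 FPKM in IDH1 WT lines (log2 difference -0.65, limma adjusted p 0.32). Vcp, the ATPase that pulls such proteins into the cytosol, stood at 123 ± 6.17 FPKM in IDH1 mutant lines and 89.9 ± 17.6 FPKM in IDH1 WT lines (log2 difference 0.46, limma adjusted p 0.332). The chaperone gene Hspa5, the most abundant, stood at 212 ± 35.1 and 250.2 ± 61.9 FPKM in mutant and WT lines.

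Genes that assemble or process the N-glycan had 10 positive and 16 negative differences among 26 tested, again with a median of -0.08. At an unadjusted p under 0.05 in limma 1 was higher and 2 lower, again near the 12.8% of all genes. Alg2, a mannosyltransferase of the early lipid-linked glycan, stood at 30.1 ± 3.02 FPKM in IDH1 mutant lines and 47.5 ± 1.86 FPKM in IDH1 WT lines (log2 difference -0.65, limma adjusted p 0.185). Alg12, which adds a later mannose, stood at 4.01 ± 0.181 FPKM in IDH1 mutant lines and 6.08 ± 0.968 FPKM in IDH1 WT lines (log2 difference -0.53, limma adjusted p 0.281). Their line means did not overlap between genotypes, which held for 3 of the 26 genes here and for 13.3% of all genes. The 1 higher gene was Man2a1, a gene of glycan processing, with the largest difference of the list (log2 difference 0.91, SE 0.26, limma adjusted p 0.281). Ddost, a subunit of the oligosaccharyltransferase, stood at 114 ± 8.56 and 125 ± 22.7 FPKM in mutant and WT lines (log2 difference -0.12).

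Of 6 genes whose proteins have been reported as substrates of FBXO2, 4 were tested, with 1 positive and 3 negative differences, none past the test and 1 lower at an unadjusted p under 0.05 in limma (12.8% of all genes). App, the amyloid precursor gene, stood at 36.9 ± 6.01 FPKM in IDH1 mutant lines and 55.4 ± 9.81 FPKM in IDH1 WT lines (log2 difference -0.58, limma adjusted p 0.319). Itgb1, encoding integrin beta 1, stood at 259 ± 65.1 and 287 ± 16.5 FPKM in mutant and WT lines (log2 difference -0.18). Messenger RNA levels do not show how much of these proteins was degraded.

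**Figure D4:**
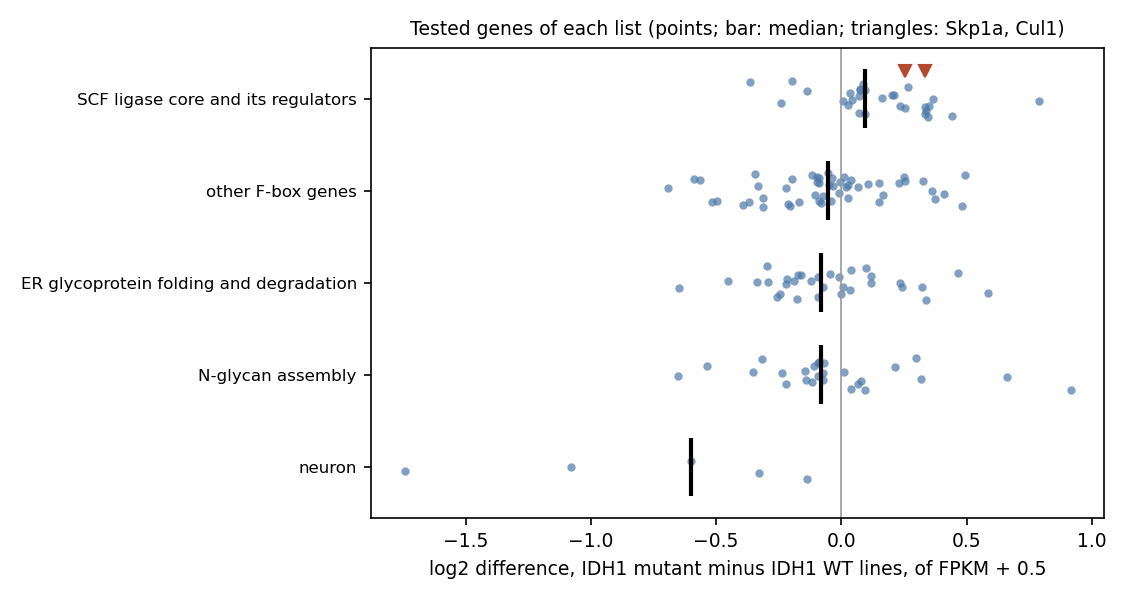
Log2 differences, IDH1 mutant minus IDH1 WT lines, of line-mean FPKM + 0.5 (horizontal axis) for the tested genes of 5 lists (points), with the median of each list as a black bar and Skp1a and Cul1 as red triangles. The SCF list has its median at 0.09 and 25 of 29 genes above 0, and the 5 neuronal markers are all below 0.

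Because FBXO2 is known from neurons, neuronal markers were read beside it. All 5 of the 10 markers that were tested had negative differences (median -0.60), and none passed the limma test. At an unadjusted p under 0.05 in limma were 2 of the 5, a share above the 12.8% of all genes. The summed level of the 10 markers was 28.7 to 42.8 FPKM in IDH1 mutant lines and 48.3 to 76.7 FPKM in IDH1 WT lines, ranges that did not overlap and lay in the opposite order to Fbxo2. Map2 was the most abundant marker in the sum. Line means of the genotypes did not overlap for 2 of the 5 tested markers, against 13.3% of all genes. Those of Tubb3 overlapped, reaching 12.4 FPKM in mutant lines and falling to 10.5 FPKM in WT lines. Syp, a synaptic vesicle gene, stood at 0.354 ± 0.221 and 1.27 ± 0.219 FPKM in mutant and WT lines, Tubb3 at 6.64 ± 4.46 and 21.9 ± 9.88 FPKM, and Map2 at 24.1 ± 7.05 and 35.8 ± 7.24 FPKM. Negative differences were not limited to neuronal markers. All 4 tested astrocyte markers (median -0.51) and the 1 tested microglial marker were also negative, and none passed the limma test. Summed markers of microglia were 0.801 to 2.56 FPKM in IDH1 mutant lines and 0.917 to 6.43 FPKM in IDH1 WT lines, those of astrocytes 31.4 to 74.3 and 67.8 to 86.6 FPKM, and those of endothelium 0.0328 to 0.357 and 0.311 to 0.791 FPKM. The part of other cell types in the Fbxo2 level was not tested, and in these bulk libraries fewer cells that transcribe a gene cannot be told apart from less RNA per cell.

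The named genes whose line means followed Fbxo2 most closely were Pantr1, Pgd, Krt10, Cbln3 and Rps6ka1, with Pearson r of 0.974, 0.968, 0.967, 0.956 and 0.954 over the 7 line means of log2(FPKM + 0.5). The lines fall into a mutant and a WT cluster for Fbxo2, so these values rank likeness and carry no test. Likeness to a gene chosen for separating the genotypes nearly fixes that they differ between them too. Pgd, the phosphogluconate dehydrogenase of the pentose phosphate pathway on chromosome 4, stood at 25.5 ± 2.36 FPKM in IDH1 mutant lines and 13.9 ± 1.56 FPKM in IDH1 WT lines (log2 difference 0.85). Its interval begins at chr4:149149991, on the flank of Fbxo2 where no gene within 250 kb was tested. Rps6ka1, a ribosomal S6 kinase gene on the same chromosome, stood at 15.6 ± 1.89 FPKM in IDH1 mutant lines and 6.20 ± 0.982 FPKM in IDH1 WT lines. Pantr1, a noncoding RNA gene beside Pou3f3, stood at 8.57 ± 1.46 FPKM in IDH1 mutant lines and 3.65 ± 0.342 FPKM in IDH1 WT lines.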

How the data were processed

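The deposited values are FPKM of 54532 genes in 21 libraries, made by the authors. HISAT2 and the build mm39 are named in the submitters' processing notes; which counter and annotation were used, and whether counting used strand, is not given in the sources used here. Per the labels' protocols the libraries were polyA-selected and strand-specific. Coordinates in the table matched those of GRCm38 for 53548 genes, all 6 described here included, and are given as GRCm38; 27 symbols turned into dates were restored by gene ID. FPKM times gene length gave whole fragments for all values of up to 1000 fragments, within 0.05 fragments, which gave the depths. No pair of libraries of the same line, the pairs compared, agreed within sampling noise.

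Tested were genes that averaged 0.5 FPKM or more in 3 or more lines, on log2(FPKM + 0.5) with limma 3.58.1 (trend, robust) in R 4.3.3, with Benjamini-Hochberg adjustment over all 13379 genes. The genotype test used the 7 line means, and F tests within a genotype used the libraries. Exact permutation tests were two-sided over 35 divisions of the lines. The fits were tested on simulated data. Sequences come from RefSeq promoter windows of GRCm38.p6, in which all 7 genes looked up were found, and figures were drawn with matplotlib 3.10.9.

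The genes and lists were chosen with earlier results of these data known. Named were the 6 genes, Fbxo17, of each list the genes that passed (otherwise the 2 with the smallest p) and the most abundant, tested genes within 250 kb (1 gene this rule names is not reported here), and the 5 genes of known name most like Fbxo2 whose lines spanned at least 1 on the log2 scale. Man2a1 was named in addition, for the largest difference of its list. Of the astrocyte, microglial and endothelial lists only sums, signs of tested markers, defining markers and some expressed genes are given. A line with 0 fragments of a gene was given the limit of 3 fragments. Alternatives were other pseudocounts, filters and scalings, fits over libraries with and without the replicate number, lines sharing a number averaged, and leaving out lines or libraries. Leaving out library 2 of PIC496-4, limma voom on fragments summed per line, and averaging log2 values per line were chosen after seeing the data.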

Additional observations from a re-analysis of the deposited data

How the results depend on the processing

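The Fbxo2 log2 difference, on which the gene was chosen, lay between 1.53 and 1.71 under every alternative. Those of Skp1a (0.23 to 0.48) and Cul1 (0.16 to 0.37) stayed positive, and neither gene reached an adjusted p under 0.05 in any setting. Unadjusted limma p-values fell under 0.05 for Skp1a without PC308-1 (0.0087) and without replicate 1 (0.0399). For Cul1 this occurred without PIC144-3 (0.0486). The near-zero Fbxo44 difference changed sign with a pseudocount of 1 (0.0016), quantile normalization (0.021), fits over 21 libraries with the line as a random effect, with or without the replicate block (0.0013), lines sharing a number averaged (0.035), library 2 of PIC496-4 left out (0.019) and log2 values averaged per line (0.0013). Leaving out a line or a replicate number gave -0.12 to 0.13 for Fbxo44 and -0.21 to 0.044 for Fbxo6. The cause was not tested. The 16 genotype calls over all genes became 3 without a filter, 8 with a filter of 2 FPKM, 4 with lines sharing a number averaged, 552 over 21 libraries with the line as a random effect and 440 with the replicate block added. limma voom gave 0 calls and 1643 genes at an unadjusted p under 0.05. Leaving out a line or number gave 0 calls (without PC134-0, with 693 genes at an unadjusted p under 0.05 in limma, or without PC326-1, with 923) to 29 (without PC308-1). The calls between WT lines, 7620, ran from 1963 without PC308-1 to 6790, with 4777 without replicate 1, and those between mutant lines stayed within 1.5 times of 10689. With the replicate block the F tests gave 10870 calls between mutant lines and 7701 between WT lines. Same-numbered libraries of different lines correlated at -0.12 to 0.29 (63 pairs, 14 over 0.1), and 9 of 21 libraries correlated best with their own number, so the numbers were not taken as pairs. Depth limits Fbxo27 most, with 0 to 38 fragments per line. With 4 and 3 lines the intervals of the genotype differences are wide.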
